A study of Homo sapiens with 16 samples.

Results

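Annexins are calcium-dependent proteins that bind acidic phospholipids such as phosphatidylserine on the inner face of cell membranes. They share a folded core of calcium-binding repeats and differ in their N-terminal tails, which bind partners such as S100 proteins. In epithelial cells they act in vesicle traffic, membrane repair and the capture of plasminogen at the cell surface. The 10 annexin genes described here (ANXA1, ANXA2, ANXA3, ANXA4, ANXA5, ANXA6, ANXA7, ANXA10, ANXA11 and ANXA13) were taken by symbol from the 23669 genes of a count table. ANXA13, an annexin known from the intestinal epithelium, had 0 counts in all 16 libraries, which allows up to 3 counts or 0.0716 to 0.112 CPM by library, and the other 9 had enough counts to be tested.

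The cells were HCT116, an established human colorectal carcinoma line. Groups labelled shNT, shTIP60 and shCDK8 stably carried an shRNA that was non-targeting or directed at TIP60 (the acetyltransferase encoded by KAT5) or at CDK8 (a kinase of the Mediator complex). The fourth line, HIF1A-/-, had a deletion of HIF1A, the gene for the subunit of hypoxia-inducible factor 1 that oxygen controls. Each line was cultured under 21% oxygen (normoxia) or moved to 1% oxygen (hypoxia) over 24 h, which gave 8 groups of 2 libraries, described by the submitters as independent biological replicates. Each altered line was a single line and the labels name no shRNA for HIF1A-/- cells, so the target of an alteration cannot be told apart from the history of its line or its vector. Libraries A and B are the lower and the higher of the 2 library numbers of a group. In these bulk samples, fewer cells that express a gene and less RNA per cell cannot be told apart.

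Library totals were 26620086 to 39401494 counts, and the 10 annexins took 0.202 to 0.39% of them. Values are normalised read counts (CPM), each count divided by its library total after rescaling by trimmed mean of M-values (TMM). Of 8 epithelial markers, 7 were at 5 CPM or more in every group, whereas leukocyte markers summed to 0.697 to 2.325 CPM and endothelial markers to 0.961 to 3.042 CPM. Fibroblast markers summed to 23.0 to 80.89 CPM, and 1 of the 6 (COL1A1) reached 5 CPM in every group. KAT5 was lower in shTIP60 than in shNT by 2.12 on the log2 scale in normoxia (adjusted p = 2.05e-08, edgeR) and CDK8 was lower in shCDK8 by 2.05 (adjusted p = 8.32e-08, edgeR). HIF1A reads in HIF1A-/- cells were 13.02 and 14.1 CPM in normoxia, against 106.9 and 108 CPM in shNT. In hypoxia they were 40.11 and 57.62 CPM in HIF1A-/- and 61.23 and 70.49 CPM in shNT. Gene counts do not show whether these reads lie outside the deleted part. CA9, a known target of hypoxia-inducible factor 1, was at 0.1859 and 0.3246 CPM in hypoxic HIF1A-/- cells and at 56.02 and 44.17 CPM in hypoxic shNT cells.

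The promoters of the annexins whose mRNA varied most are shown first, to set sequence beside response. They are the RefSeq windows from 250 bases before to 50 bases after the start site (build GRCh38.p14), which were found for 9 of the 10 genes. Capitals mark ACGTG or GCGTG on either strand, the core of the hypoxia response element. ANXA10 lies at chr4:168092287-168092586 (+), ANXA1 at chr9:73151615-73151914 (+), ANXA3 at chr4:78551520-78551819 (+) and ANXA2 at chr15:60397937-60398236 (-).
ANXA10: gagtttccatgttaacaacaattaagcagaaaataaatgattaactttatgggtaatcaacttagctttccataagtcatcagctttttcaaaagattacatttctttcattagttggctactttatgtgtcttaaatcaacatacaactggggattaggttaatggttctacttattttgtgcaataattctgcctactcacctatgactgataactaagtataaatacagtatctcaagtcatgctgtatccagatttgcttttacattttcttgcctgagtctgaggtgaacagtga
ANXA1: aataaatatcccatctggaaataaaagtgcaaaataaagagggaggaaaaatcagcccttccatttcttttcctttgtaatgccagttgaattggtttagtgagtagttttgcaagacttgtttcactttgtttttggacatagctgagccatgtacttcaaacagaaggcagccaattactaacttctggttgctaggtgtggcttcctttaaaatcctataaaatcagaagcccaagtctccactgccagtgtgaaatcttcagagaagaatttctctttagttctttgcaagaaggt
ANXA3: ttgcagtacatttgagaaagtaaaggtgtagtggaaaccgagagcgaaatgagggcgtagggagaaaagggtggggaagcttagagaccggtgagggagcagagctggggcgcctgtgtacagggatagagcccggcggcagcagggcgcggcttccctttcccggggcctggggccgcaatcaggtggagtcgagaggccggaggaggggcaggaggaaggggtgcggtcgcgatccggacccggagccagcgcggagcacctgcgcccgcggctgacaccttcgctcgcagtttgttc
ANXA2: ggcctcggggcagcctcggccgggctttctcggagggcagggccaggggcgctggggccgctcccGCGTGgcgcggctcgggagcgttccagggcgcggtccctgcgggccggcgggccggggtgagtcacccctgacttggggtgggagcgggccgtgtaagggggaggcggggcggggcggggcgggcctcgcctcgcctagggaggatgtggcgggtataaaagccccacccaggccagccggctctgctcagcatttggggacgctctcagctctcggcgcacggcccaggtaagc
The ANXA10 and ANXA1 windows had a GC content of 32.7% and 37.7% and 0 CpG dinucleotides, and each held TATAAA, at -29 and -31 from the start site. The ANXA3 window had 64.7% GC and 25 CpG, and the ANXA2 window 76% GC and 32 CpG, with TATAAA at -31 and GCGTG at -185. The median GC content of the 35116 promoters in the table was 58.7%, and TATAAA was in 11.5% of them on either strand. ACGTG or GCGTG was in 48.4% of all promoters and in 5 of the 9 annexin windows: ANXA2, ANXA4, ANXA5, ANXA6 and ANXA11. Only ANXA4 among the 9 had the palindrome CACGTG, at -216, which 7.26% of all promoters held and which contains ACGTG. The windows of ANXA1, ANXA3, ANXA7 and ANXA10 had neither ACGTG nor GCGTG. A match is a run of letters and shows no binding.

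ANXA10, an annexin known from the stomach, had the widest range of the family. Its mRNA was lowest in shNT, higher in every altered line at the same oxygen level, and lower in hypoxia than in normoxia in all 4 lines. The gene has 12 exons in its canonical transcript and lies at chr4:169013688-169108887 (GRCh37, + strand). In normoxia its 2 libraries were at 1.201 and 1.648 CPM in shNT (39 and 69 reads), and at 3.585 and 4.977 CPM in shCDK8. They were at 29.04 and 28.3 CPM in shTIP60 and at 77.24 and 101.3 CPM in HIF1A-/- (3061 and 4043 reads). These 4 groups did not overlap: shNT was the lowest and HIF1A-/- the highest. In hypoxia the values were 0.138 and 0.1653 CPM in shNT (4 and 5 reads), 1.351 and 1.806 CPM in shCDK8, 10.26 and 9.918 CPM in shTIP60, and 33.53 and 31.17 CPM in HIF1A-/-. The order of the lines was the same at both oxygen levels, and of the 8 groups in order of level only hypoxic shCDK8 and normoxic shNT overlapped. The highest library was 734 times the lowest, and the group means spanned 8.71 on the log2 scale, a wider span than that of 99.9% of the genes tested.

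**Figure D1:**
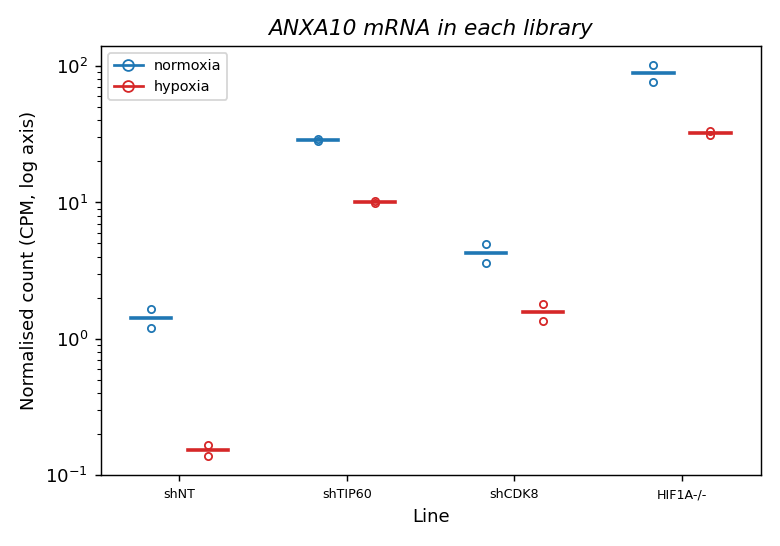
ANXA10 normalised counts (CPM, log axis) for each line, with normoxia in blue and hypoxia in red. Circles are single libraries and bars are group means (n = 2); within each line both hypoxic libraries lie below both normoxic ones, from 0.138 CPM in shNT to 101.3 CPM in HIF1A-/-.

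Relative to shNT in normoxia, ANXA10 was higher in shTIP60 by 4.31 ± 0.22 on the log2 scale (adjusted p = 1.48e-09), in shCDK8 by 1.58 ± 0.22 (adjusted p = 0.000166) and in HIF1A-/- by 5.95 ± 0.22 (adjusted p = 5.36e-11). Changes are log2 fold changes ± SE, and adjusted p are from edgeR's quasi-likelihood test with Benjamini-Hochberg adjustment over all 15520 genes tested. In hypoxia ANXA10 was higher than in shNT by 6.02 ± 0.32 in shTIP60 (adjusted p = 3.29e-09), by 3.34 ± 0.39 in shCDK8 (adjusted p = 1.6e-05) and by 7.70 ± 0.30 in HIF1A-/- (adjusted p = 9.8e-11). These comparisons share the shNT libraries. ANXA10 passed the threshold of 0.05 in 11 of the 13 comparisons made, and each of its 10 differences in level was still called when any library was left out.

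Hypoxia lowered ANXA10 in shNT by 3.21 ± 0.39 (9.27-fold, adjusted p = 1.26e-05, edgeR). The fall was 1.51 ± 0.18 in shTIP60 (adjusted p = 1.17e-05), 1.45 ± 0.22 in shCDK8 (adjusted p = 0.000259) and 1.46 ± 0.17 in HIF1A-/- (adjusted p = 1.37e-05). As ratios of group means, normoxia over hypoxia was 9.39 in shNT, 2.84 in shTIP60, 2.71 in shCDK8 and 2.76 in HIF1A-/-. The differences of the altered lines' responses from that of shNT lay within their errors of each other, at 1.71 ± 0.47, 1.77 ± 0.49 and 1.75 ± 0.46 for shTIP60, shCDK8 and HIF1A-/-. The unadjusted p were 0.00214, 0.00234 and 0.00166, and the adjusted p were 0.361, 0.186 and 0.0178 (edgeR), because the adjustment depends on how many genes differ in each comparison. The HIF1A-/- call was lost without shNT normoxia library B (1.49, adjusted p = 0.0656), shNT hypoxia library A (1.63, adjusted p = 0.0942) or shNT hypoxia library B (1.89, adjusted p = 0.0637). All 3 differences rest on the 4 and 5 reads of the hypoxic shNT libraries.

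Over the 16 libraries, the 5 genes whose log2 CPM followed ANXA10 most closely, of 10602 genes at a mean of 5 CPM or more, were ID3 (Pearson r = 0.959), KRT20 (0.955), MSX2 (0.952), KRT10 (0.934) and CCDC113 (0.929). KRT20, a keratin of differentiated intestinal epithelium, was at 4.97 ± 1.24 CPM (SD, n = 2) in normoxic shNT, 61.9 ± 3.08 CPM in shTIP60, 10.8 ± 1.87 CPM in shCDK8 and 89.6 ± 10.7 CPM in HIF1A-/-. Its hypoxic means in the same order were 0.681 ± 0.355, 27 ± 2.75, 1.99 ± 0.856 and 29.8 ± 17.1 CPM, so the HIF1A-/- replicates lay far apart. ID3, an inhibitor of basic helix-loop-helix factors, ran from 53.4 ± 11.3 CPM in hypoxic shNT to 580 ± 92 CPM in normoxic HIF1A-/-. The libraries share lines, oxygen levels and depth, so these coefficients, like those below for ANXA3 and ANXA1, describe a shared order of groups.

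ANXA3 was the member whose level fell most in the HIF1A-/- line, and the only member called higher in hypoxia in one line (HIF1A-/-) and lower in another (shCDK8). It encodes a small annexin found in many secretory and blood cells, and lies at chr4:79472901-79531605 (GRCh37, + strand, 13 exons). In normoxia the 2 libraries were at 221.9 and 269.1 CPM in shNT, 173.6 and 182.6 CPM in shTIP60, 142 and 214 CPM in shCDK8, and 46.61 and 46.31 CPM in HIF1A-/-. In hypoxia they were at 169.7 and 214.7 CPM in shNT, 122.6 and 141.8 CPM in shTIP60, 110.7 and 138 CPM in shCDK8, and 80.27 and 79.73 CPM in HIF1A-/-. All 4 HIF1A-/- libraries lay below every library of the other lines. HIF1A-/- was lower than shNT by 2.40 ± 0.19 on the log2 scale in normoxia (adjusted p = 3.54e-07, edgeR) and by 1.26 ± 0.18 in hypoxia (adjusted p = 6.02e-05, edgeR).

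With hypoxia ANXA3 rose in HIF1A-/- by 0.78 ± 0.18 (1.72-fold, adjusted p = 0.00343, edgeR) and fell in shCDK8 by 0.52 ± 0.18 (adjusted p = 0.0477, edgeR). Its log2 changes were -0.35 ± 0.18 in shNT (adjusted p = 0.133) and -0.43 ± 0.18 in shTIP60 (adjusted p = 0.0715), neither past the threshold. The shCDK8 call was lost without normoxia library B (-0.19, adjusted p = 0.537), hypoxia library A (-0.37, adjusted p = 0.299) or hypoxia library B (-0.69, adjusted p = 0.0661). The response of HIF1A-/- exceeded that of shNT by 1.14 ± 0.26 (adjusted p = 0.00783, edgeR), and this call held when any library was left out. HIF1A reads rose with hypoxia in HIF1A-/- by 1.85 ± 0.15 (adjusted p = 4.91e-07) and fell in shNT by 0.71 ± 0.15 (adjusted p = 0.00124), and their part in the ANXA3 pattern was not tested. The 5 genes nearest to ANXA3 over the 16 libraries were RCN1 (Pearson r = 0.935), PTGR1 (0.931), COMMD7 (0.916), MARC2 (0.91) and HIF1A (0.907). HIF1A is the gene deleted in the HIF1A-/- line, and both it and ANXA3 were lowest in normoxic HIF1A-/- cells.

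In hypoxia ANXA3 was also lower than in shNT in shTIP60, by 0.54 ± 0.18 (adjusted p = 0.0438, edgeR), and in shCDK8, by 0.63 ± 0.18 (adjusted p = 0.0176, edgeR). Omitting shNT hypoxia library B ended the shTIP60 call (adjusted p = 0.323), as did omitting shTIP60 hypoxia library A (0.268) or library B (0.0901). Omitting shNT hypoxia library B (0.178) or shCDK8 hypoxia library A (0.183) ended that of shCDK8. In normoxia the differences of ANXA3 from shNT were -0.46 ± 0.18 in both knockdown lines (adjusted p = 0.0898 and 0.112), and that of shCDK8 was called without shCDK8 normoxia library B (-0.79, adjusted p = 0.0171).

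**Figure D2:**
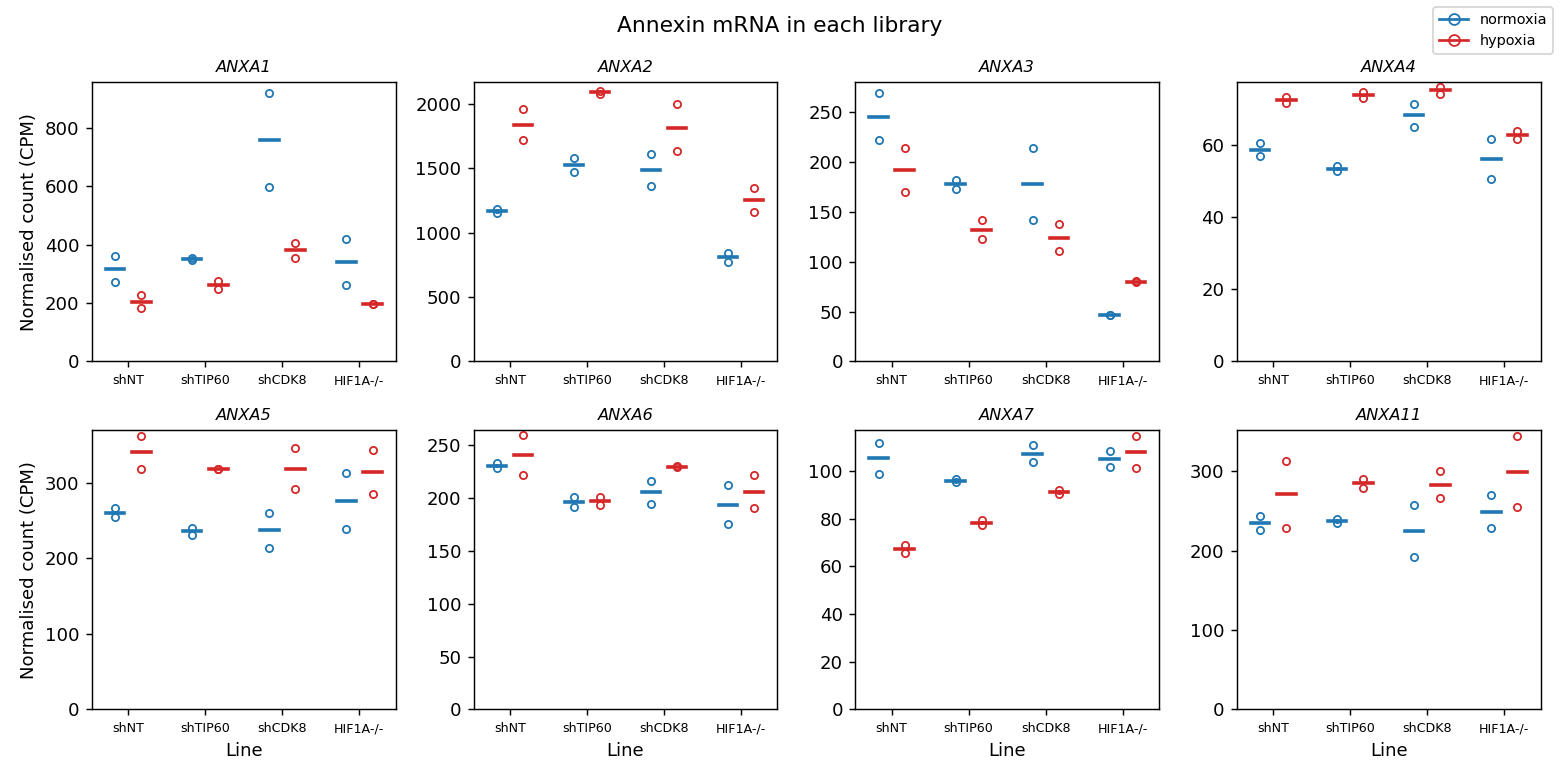
Normalised counts (CPM, linear axes from 0) of the other 8 annexins with reads, by line, with normoxia in blue and hypoxia in red. Circles are single libraries and bars are group means (n = 2); ANXA1 is highest in normoxic shCDK8 (599.4 and 919.8 CPM) and ANXA3 lowest in HIF1A-/-, while ANXA6 varies little.

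ANXA1, which encodes an anti-inflammatory annexin that signals through formyl peptide receptors, stood highest in the shCDK8 line and was lower in hypoxia. It lies at chr9:75766781-75785309 (GRCh37, + strand, 13 exons). In normoxia its libraries were at 272.8 and 362.9 CPM in shNT, 355.5 and 348.5 CPM in shTIP60, 599.4 and 919.8 CPM in shCDK8, and 263.5 and 418.8 CPM in HIF1A-/-. In hypoxia they were at 182.5 and 226 CPM in shNT, 247.6 and 274 CPM in shTIP60, 355.2 and 406.2 CPM in shCDK8, and 198.3 and 198.4 CPM in HIF1A-/-. In every line both hypoxic libraries lay below both normoxic ones, and both normoxic shCDK8 libraries lay above every other library. The normoxic replicates of shCDK8 and HIF1A-/- differed widely.

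ANXA1 was higher in shCDK8 than in shNT by 1.26 ± 0.22 in normoxia (adjusted p = 0.00106, edgeR) and by 0.90 ± 0.22 in hypoxia (adjusted p = 0.00697, edgeR). The normoxic call held when any library was left out, whereas the hypoxic call was lost without shNT hypoxia library A (adjusted p = 0.0577) or shCDK8 hypoxia library B (0.053). Hypoxia lowered ANXA1 by 0.64 ± 0.22 in shNT (adjusted p = 0.0293), 1.00 ± 0.22 in shCDK8 (adjusted p = 0.004) and 0.78 ± 0.22 in HIF1A-/- (adjusted p = 0.011, edgeR). The value in shTIP60 was -0.43 ± 0.22 (adjusted p = 0.132). These calls were lost without library B of the normoxic group of the same line, with adjusted p of 0.239 in shNT (-0.42), 0.0751 in shCDK8 (-0.65) and 0.172 in HIF1A-/- (-0.41). They were also lost in shNT without hypoxia library A (-0.49, adjusted p = 0.176) and in HIF1A-/- without hypoxia library B (-0.78, adjusted p = 0.0567). None of the 3 differences in response from shNT was called for ANXA1. Its nearest genes over the 16 libraries were MRPS23 (Pearson r = 0.936), RBM34 (0.935), MRPL39 (0.934), PON2 (0.928) and LYPLAL1 (0.927). Of the receptors, FPR2 (at most 6 reads in a library) and FPR3 (at most 1) were near the floor of detection. FPR1 had at most 42 reads and was tested. It was higher than in shNT in shTIP60, by 2.15 ± 0.54 in normoxia and 2.16 ± 0.61 in hypoxia (adjusted p = 0.0121 and 0.0217, edgeR). It was lower in shCDK8 at both oxygen levels (adjusted p = 0.0315 and 0.0157) and in hypoxic HIF1A-/- (adjusted p = 0.0153, edgeR). Its difference in normoxic HIF1A-/- was not called (adjusted p = 0.218, edgeR). These values rest on few reads.

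ANXA2, which forms a complex with S100A10 that binds plasminogen and tethers membranes, was the most abundant annexin mRNA in every group and rose with hypoxia. It lies at chr15:60639333-60695082 (GRCh37, - strand, 13 exons). In normoxia its libraries were at 1150 and 1184 CPM in shNT, 1576 and 1470 CPM in shTIP60, 1361.2 and 1611.7 CPM in shCDK8, and 774.1 and 842.7 CPM in HIF1A-/-. In hypoxia they were at 1720 and 1958 CPM in shNT, 2079 and 2100 CPM in shTIP60, 1632.6 and 1995 CPM in shCDK8, and 1162.5 and 1348.2 CPM in HIF1A-/-. Both hypoxic libraries lay above both normoxic ones in every line, and HIF1A-/- lay below the other lines at each oxygen level.

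Hypoxia raised ANXA2 by 0.66 ± 0.14 in shNT (1.58-fold, adjusted p = 0.00172), 0.46 ± 0.14 in shTIP60 (adjusted p = 0.0181) and 0.64 ± 0.14 in HIF1A-/- (adjusted p = 0.00249, edgeR). The value in shCDK8 was 0.29 ± 0.14 (adjusted p = 0.155). The shTIP60 call was lost without any one of the 4 libraries (adjusted p = 0.0651 to 0.124). HIF1A-/- was below shNT by 0.53 ± 0.14 in normoxia (adjusted p = 0.0215, edgeR) and by 0.55 ± 0.14 in hypoxia (adjusted p = 0.00569, edgeR). The normoxic call was lost without any one of its 4 libraries (adjusted p = 0.0501 to 0.139), and the hypoxic call without shNT library B (0.0537) or HIF1A-/- library A (0.0592). The response of HIF1A-/- differed from that of shNT by -0.02 ± 0.20 (adjusted p = 0.963), so the 2 rises differed by less than their error.

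The genome holds 3 processed copies of ANXA2, whose rows were counted apart, and exon 3 with its counterparts is shown because reads of such near-identical sequence may be split between rows. The exon lies at chr15:60674541-60674640 (GRCh37, - strand), and capitals mark the bases of a copy that differ from ANXA2.
ANXA2: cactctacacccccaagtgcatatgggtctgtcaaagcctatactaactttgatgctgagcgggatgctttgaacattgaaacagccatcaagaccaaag
ANXA2P1: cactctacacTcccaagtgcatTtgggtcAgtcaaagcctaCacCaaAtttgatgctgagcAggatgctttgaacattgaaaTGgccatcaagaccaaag
ANXA2P2: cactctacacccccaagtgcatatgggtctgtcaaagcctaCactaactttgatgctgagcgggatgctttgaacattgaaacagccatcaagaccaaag
ANXA2P3: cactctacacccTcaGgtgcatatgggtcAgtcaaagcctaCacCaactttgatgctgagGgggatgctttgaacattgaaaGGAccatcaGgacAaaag
ANXA2P2 differed from ANXA2 at 1 of these 100 bases, ANXA2P1 at 9 and ANXA2P3 at 11. Over the aligned coding sequence of ANXA2, ANXA2P2 was 98.4% identical to it, with 16 differing bases in 1017 and a longest identical run of 221 bases. The untranslated parts were not compared. ANXA2P1 was 93.8% and ANXA2P3 92.2% identical. Of the reads in the 4 rows, ANXA2 held 58 to 63.8% over the 16 libraries and ANXA2P2 30.1 to 35.8%. The 3 copies rose with hypoxia in shNT by 0.59 ± 0.13 (ANXA2P1), 0.62 ± 0.14 (ANXA2P2) and 0.60 ± 0.15 (ANXA2P3), beside 0.66 for ANXA2. The level of the ANXA2 row alone is therefore uncertain, and with the 4 rows summed no call of a member changed.

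S100A10, the partner of ANXA2, was higher in every altered line than in shNT in normoxia. Its libraries were at 125.8 and 115.4 CPM in shNT, 535.7 and 469.1 CPM in shTIP60, 265.9 and 217.1 CPM in shCDK8, and 225.8 and 210 CPM in HIF1A-/-. The differences from shNT were 2.06 ± 0.14, 1.00 ± 0.14 and 0.85 ± 0.14 (adjusted p = 6.46e-08, 0.000142 and 0.000553, edgeR). In normoxia ANXA2 and S100A10 thus lay on opposite sides of shNT in HIF1A-/- cells. In hypoxia S100A10 was still higher than in shNT in shTIP60 (1.22 ± 0.14, adjusted p = 1.37e-05) and shCDK8 (0.71 ± 0.14, adjusted p = 0.00137, edgeR), while its difference in HIF1A-/- was 0.26 ± 0.14 (adjusted p = 0.14, edgeR) and did not pass the threshold. Hypoxia raised S100A10 by 1.05 ± 0.14 in shNT (adjusted p = 2.69e-05), 0.77 ± 0.14 in shCDK8 (adjusted p = 0.000942) and 0.46 ± 0.14 in HIF1A-/- (adjusted p = 0.0153, edgeR). In shTIP60 the value was 0.21 ± 0.14 (adjusted p = 0.242, edgeR). Of the 12 tested S100 genes, 0 had a response called different from that of shNT in shTIP60, shCDK8 or HIF1A-/-. The shares of all genes were 0.0322%, 0.0387% and 16.4%.

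**Figure D3:**
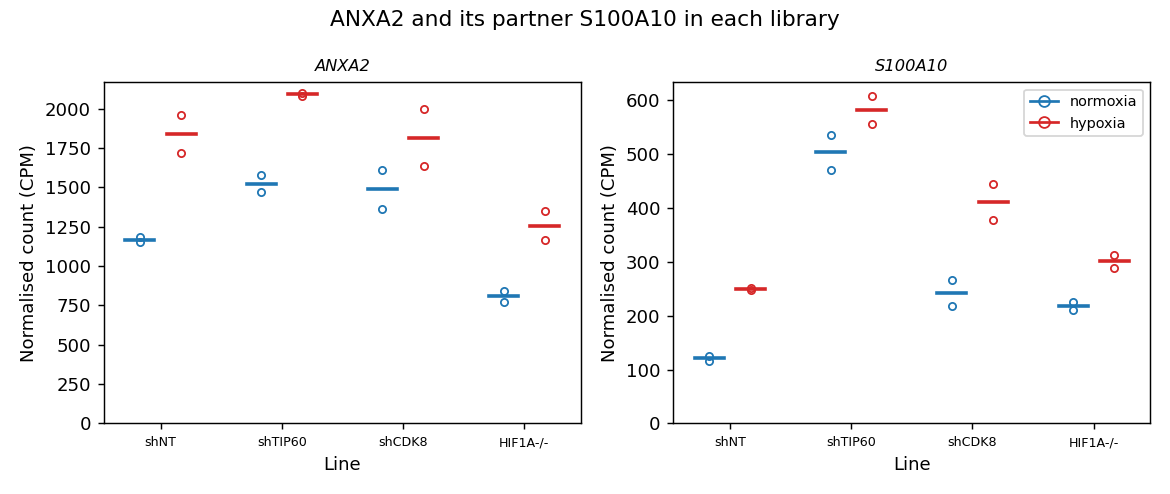
Normalised counts (CPM) of ANXA2 and S100A10 by line, with normoxia in blue and hypoxia in red; circles are single libraries and bars are group means (n = 2). ANXA2 is lowest in normoxic HIF1A-/- (774.1 and 842.7 CPM), whereas S100A10 is lowest in normoxic shNT (125.8 and 115.4 CPM).

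ANXA7, known as synexin for its part in membrane fusion, fell with hypoxia in shNT, and its response in HIF1A-/- differed from that. It lies at chr10:75134859-75173834 (GRCh37, - strand), and 105 exonic bases overlap a non-coding RNA on the opposite strand, whose reads cannot be told apart from those of ANXA7 because the strand setting of the counting is not given. In shNT its libraries went from 111.7 and 98.66 CPM in normoxia to 68.78 and 65.76 CPM in hypoxia. In HIF1A-/- they were at 108.3 and 101.7 CPM in normoxia and at 101 and 114.5 CPM in hypoxia. The normoxic and hypoxic libraries of HIF1A-/- overlapped, and the 2 hypoxic shNT libraries were the lowest of all 16. In shTIP60 they went from 95.39 and 96.46 to 77.14 and 79.31 CPM, and in shCDK8 from 103.6 and 110.8 to 91.81 and 90.22 CPM.

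The log2 change of ANXA7 with hypoxia was -0.64 ± 0.12 in shNT (adjusted p = 0.00037), -0.29 ± 0.11 in shTIP60 (adjusted p = 0.0528), -0.24 ± 0.11 in shCDK8 (adjusted p = 0.148) and 0.04 ± 0.11 in HIF1A-/- (adjusted p = 0.824, edgeR). The response of HIF1A-/- differed from that of shNT by 0.68 ± 0.16 (adjusted p = 0.0103, edgeR), a call lost without shNT normoxia library A (0.59, adjusted p = 0.0645) and when only the groups compared were fitted (0.68, adjusted p = 0.0721). The same difference was 0.35 ± 0.16 for shTIP60 (unadjusted p = 0.0465, adjusted p = 0.851) and 0.41 ± 0.16 for shCDK8 (unadjusted p = 0.0229, adjusted p = 0.363, edgeR). In hypoxia ANXA7 was higher than in shNT in HIF1A-/- by 0.68 ± 0.12 (adjusted p = 0.000237) and in shCDK8 by 0.44 ± 0.12 (adjusted p = 0.0104, edgeR). That of shCDK8 ended on omitting shNT hypoxia library B (adjusted p = 0.0761) or shCDK8 hypoxia library A (0.0709).

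ANXA4 and ANXA5 had small upward differences in hypoxia. ANXA5 binds exposed phosphatidylserine and lies at chr4:122589101-122618150, and ANXA4, an annexin of epithelial membranes, lies at chr2:69871557-70054244 (GRCh37). In shTIP60 ANXA4 went from 54.13 and 52.82 CPM to 73.05 and 74.66 CPM, a rise of 0.47 ± 0.12 (adjusted p = 0.00574, edgeR). ANXA5 went from 230.9 and 240.3 CPM to 318.6 and 318.7 CPM, a rise of 0.44 ± 0.16 (adjusted p = 0.0369, edgeR), which was lost without any one of the 4 libraries (adjusted p = 0.111 to 0.173). In shNT the values were 0.31 ± 0.12 for ANXA4 (adjusted p = 0.0508) and 0.38 ± 0.16 for ANXA5 (adjusted p = 0.0606), just short of the threshold. Neither gene passed it in shCDK8 or HIF1A-/-, or in any comparison between lines. With DESeq2, ANXA4 and ANXA5 were called in shNT (adjusted p = 0.025 and 0.0341) and ANXA5 in shCDK8 (0.42, adjusted p = 0.0349).

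ANXA6, whose protein has a duplicated core, and ANXA11, which has a long disordered N-terminal tail, passed the threshold in 0 of 13 comparisons when all 16 libraries were fitted with edgeR. ANXA6 lay between 174.9 and 259.6 CPM and ANXA11 between 192.5 and 343.7 CPM over the 16 libraries. The group means of ANXA6 spanned 0.32 on the log2 scale, and 0.87% of the genes tested had a smaller span. The largest ANXA11 change with hypoxia was 0.33 ± 0.18 in shCDK8 (adjusted p = 0.197), which was called with a block for library numbers (0.34, adjusted p = 0.033, edgeR). ANXA11 was also called in shTIP60 when only the groups compared were fitted (0.28, adjusted p = 0.00264, edgeR).

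Per kilobase of canonical transcript, ANXA2 led in normoxic shNT at 751 ± 15.4 CPM per kb (SD, n = 2), followed by ANXA1 at 227 ± 45.5, ANXA3 at 171 ± 23.3 and ANXA5 at 159 ± 5.09 CPM per kb. ANXA3 and ANXA5 overlapped. ANXA6 (79.8 CPM per kb), ANXA7 (43.1), ANXA11 (34.8), ANXA4 (22.1) and ANXA10 (0.988) came next, without overlap between neighbours. The canonical transcript of ANXA11 is 6734 bases long against a coding length of 1515 bases, so its place depends on the transcript used.

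By comparison, hypoxia changed 4 of the 9 tested annexins in shNT, where 40.7% of all genes tested were called: ANXA2 rose and ANXA1, ANXA7 and ANXA10 fell. It changed 4 in shTIP60 (39.2% of all genes), where ANXA2, ANXA4 and ANXA5 rose and ANXA10 fell, and 3 in shCDK8 (24.8%), where ANXA1, ANXA3 and ANXA10 fell. In HIF1A-/- it changed 4 (38.0%): ANXA2 and ANXA3 rose and ANXA1 and ANXA10 fell. These shares were close to those of all genes. The median log2 change over the 9 members in shNT was 0.06, against -0.0007 over all genes.

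**Figure D4:**
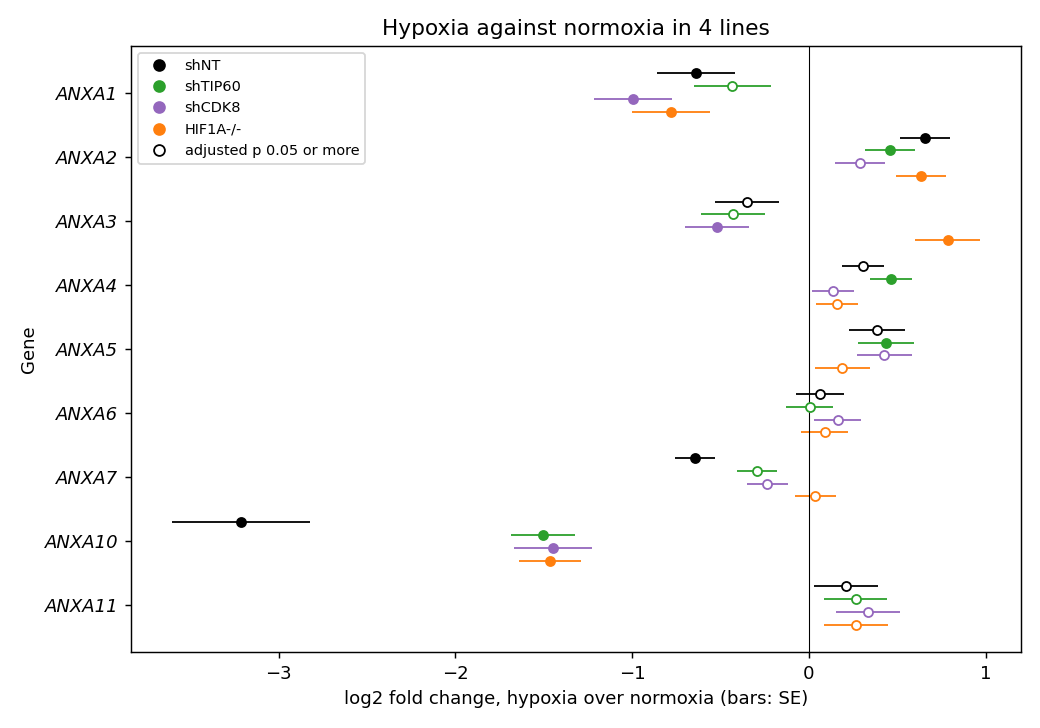
Log2 fold change of each annexin, hypoxia over normoxia, in the 4 lines (bars are SE; filled circles are adjusted p under 0.05, edgeR). ANXA10 lies below 0 in every line, furthest in shNT (-3.21), and ANXA3 lies above 0 in HIF1A-/- (0.78) and below it in the others.

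Against shNT in normoxia, 1 of 9 members was called in shTIP60 (18.4% of all genes), 2 in shCDK8 (13.1%) and 3 in HIF1A-/- (11.7%). In hypoxia the counts were 2 in shTIP60 (21.8%), 4 in shCDK8 (27.9%) and 4 in HIF1A-/- (41.1%). ANXA10 was called higher in all 6, and every other call was of ANXA1, ANXA2, ANXA3 or ANXA7. The response to hypoxia differed from that of shNT for 3 members in HIF1A-/- (16.4% of all genes), ANXA3, ANXA7 and ANXA10. With edgeR it differed for 0 members in shTIP60 (0.0322% of all genes) and 0 in shCDK8 (0.0387%). In each of these, 2 members (ANXA7 and ANXA10) had an unadjusted p under 0.05, and DESeq2 called 0.

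**Figure D5:**
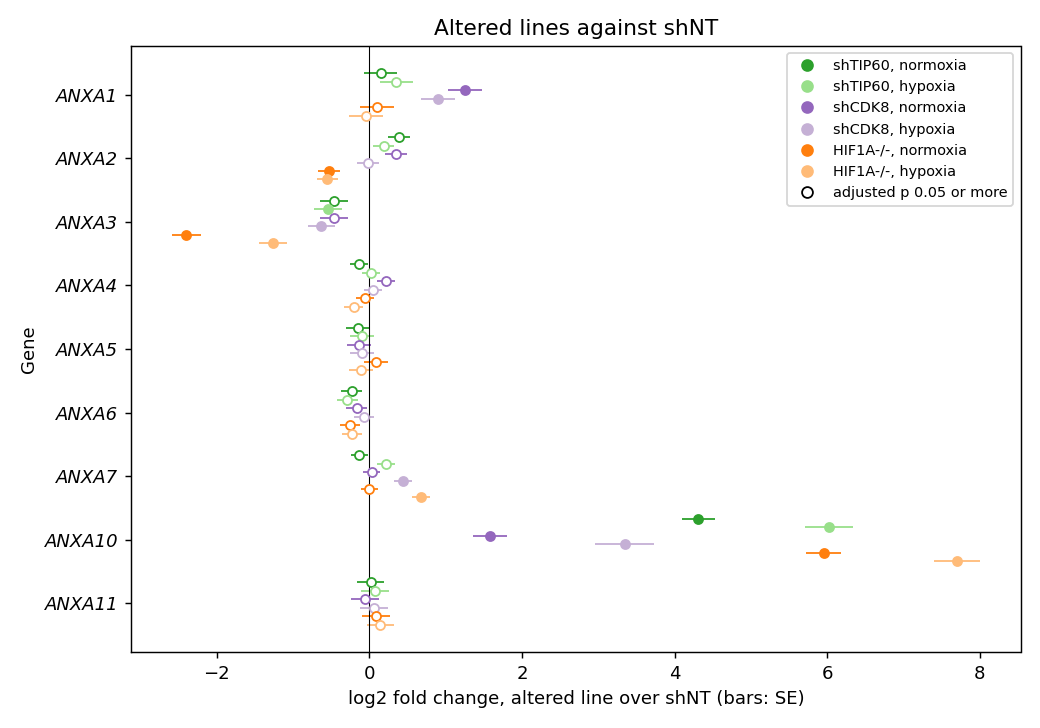
Log2 fold change of each annexin in the altered lines over shNT, at both oxygen levels (bars are SE; filled circles are adjusted p under 0.05, edgeR). ANXA10 lies to the right in all 6 comparisons, up to 7.70 in hypoxic HIF1A-/-, and ANXA3 to the left, down to -2.40 in normoxic HIF1A-/-.

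Among genes that act with annexins, 5 of 7 tested genes of plasminogen activation changed with hypoxia in shNT, where 40.7% of all genes were called. PLAUR, the urokinase receptor, rose by 1.74 ± 0.19, and ENO1, an enzyme that also binds plasminogen, by 1.40 ± 0.15. PLAU, which encodes urokinase, rose by 0.81 ± 0.20 and PLGRKT, a plasminogen receptor, fell by 0.52 ± 0.18 (adjusted p = 3.56e-06, 2.79e-06, 0.00396 and 0.0268 in that order, edgeR). The median over the list was 0.81, against -0.0007 over all genes. The rise of ENO1 was smaller in HIF1A-/- than in shNT, by 1.14 ± 0.20 (adjusted p = 0.00167, edgeR). That of ANXA2 differed by less than its error.

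Of 20 membrane repair genes, 7 rose and 2 fell with hypoxia in shNT, with a median of 0.35. AHNAK, a scaffold that binds the ANXA2 complex, rose by 1.74 ± 0.16, CAV1, a coat protein of caveolae, by 1.27 ± 0.14, EHD2, an ATPase at caveolae, by 1.62 ± 0.22 and MYOF, a ferlin, by 0.97 ± 0.13. In HIF1A-/-, 6 rose and 3 fell. The 9 of 20 called in each line lay near the shares of all genes called, 40.7% in shNT and 38.0% in HIF1A-/-. Of 11 tested genes of phosphatidylserine exposure and retrieval, 5 rose and 0 fell in shNT, led by the scramblase ANO6 at 1.33 ± 0.13. Of 7 tested copines, calcium-dependent membrane binders of another family, 2 rose and 0 fell. Of 12 tested S100 genes, 2 rose and 0 fell in shNT, S100A10 and S100A6 (0.55 ± 0.14, adjusted p = 0.00545, edgeR). These counts of 5 of 11, 2 of 7 and 2 of 12 stand beside the same 40.7% of all genes. Against shNT in normoxia, 5 of the 12 S100 genes were higher in shTIP60 (18.4% of all genes called), 5 higher and 1 lower in shCDK8 (13.1%), and 6 higher in HIF1A-/- (11.7%).

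Among annexin rows outside the 10, ANXA9 was at 5.481 and 7.044 CPM in normoxic shNT and at 1.326 and 1.708 CPM in normoxic shCDK8, a difference of -2.04 ± 0.29 (adjusted p = 0.000185, edgeR). In hypoxia ANXA9 was below shNT in shCDK8 (-0.96 ± 0.28, adjusted p = 0.0179) and in HIF1A-/- (-0.93 ± 0.28, adjusted p = 0.0147, edgeR). Hypoxia lowered it in HIF1A-/- by 1.14 ± 0.28 (adjusted p = 0.00444, edgeR). Its differences from shNT in normoxic HIF1A-/- (-0.12 ± 0.26) and in shTIP60 at both oxygen levels were not called. ANXA8 and ANXA8L1 had 0 counts in all libraries. ANXA8L2 had 9 and 21 reads (0.2757 and 0.5954 CPM) in normoxic shTIP60 and 0 in both normoxic shNT libraries, a difference called by edgeR (adjusted p = 0.00249). In hypoxia it had 9 and 19 reads in shTIP60 and 0 and 1 in shNT (adjusted p = 0.00876, edgeR). The ANXA8 rows are near-identical copies, so how reads were shared between them is uncertain.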

How the data were processed

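Libraries of poly(A) RNA from HCT116 cells were read on the Ion Torrent Proton, per the labels' protocols. The authors deposited 1 table of unscaled counts, with gene symbols in rows and 16 libraries in columns. The submitters' processing notes name R (3.0.3), HTSeq (0.5.4p5), GSNAP (2013-10-28) and DESeq (1.14.0), on build hg19. For the annotation, strand setting and read filters, the value is not given in the sources used here. Column names gave each library's group but not the replicate number of the labels.

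Genes with too few counts for their group (minimum 10, total 15) were removed, leaving 15520 of 23669 (65.6%). edgeR 4.0.16 in R 4.3.3 fitted 1 coefficient per group to all 16 libraries with TMM factors and a robust quasi-likelihood model (common biological coefficient of variation 0.132, 8 residual degrees of freedom). Benjamini-Hochberg adjustment of two-sided p ran over all genes tested in each of 13 comparisons, at a threshold of 0.05. With 2 libraries a group, p measure only the spread between replicate libraries. That spread was estimated over all groups together, so p do not show how far apart the replicates of a single group lay. The floor, 3 counts, was 0.0716 to 0.112 CPM by library and covers counting error only. Replicates were not duplicates: their differences exceeded counting error.

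The fit was also run on simulated counts with 200 genes changed. With hypoxia 3848 to 6311 genes were called here, so that run does not show how the fit behaves with so many changes. Coordinates are from GENCODE release 44 lifted to GRCh37, promoters from RefSeq. All 10 annexins are named; from each list up to 4 genes with the smallest adjusted p are named, except that 1 gene the rule took is not reported here, and for the 3 members with the widest range the 5 genes nearest by Pearson r. ANXA9, S100A6, PLGRKT, ANXA8, ANXA8L1, ANXA8L2, the formyl peptide receptors and the ANXA2 copies were also named. The annexins and gene lists were chosen with earlier results of these data known. Alternatives were DESeq2 1.42.0, relative log expression (RLE) factors, library totals, other filters, a test against 1.5-fold, only the groups compared, summed ANXA2 rows, and each library left out; a block of library numbers was added after seeing the data.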

Additional observations from a re-analysis of the deposited data

Results flagged for a closer look

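In 3 annexins the response to hypoxia differed between HIF1A-/- and shNT by a test of the difference itself (edgeR, Benjamini-Hochberg over all genes). The HIF1A-/- response of ANXA3 was higher by 1.14 on the log2 scale (adjusted p = 0.00783), from a change of -0.35 in shNT to one of 0.78 in HIF1A-/-. That of ANXA7 was higher by 0.68 (adjusted p = 0.0103), from -0.64 to 0.04, and was not called when only the groups compared were fitted (0.68, adjusted p = 0.0721) or without shNT normoxia library A (0.59, adjusted p = 0.0645). That of ANXA10 was higher by 1.75 (adjusted p = 0.0178), from -3.21 to -1.46, and rests on 4 and 5 reads in the hypoxic shNT libraries. The ANXA10 call was lost without shNT normoxia library B (1.49), shNT hypoxia library A (1.63) or shNT hypoxia library B (1.89). The ANXA10 differences of shTIP60 (1.71 ± 0.47) and shCDK8 (1.77 ± 0.49) were as large but not called (adjusted p = 0.361 and 0.186, edgeR). Its size was therefore not particular to HIF1A-/-.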

How the results depend on the processing

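No direction of a called change reversed under any alternative. Scaling by library totals moved the median of all genes in hypoxia by -0.20 in shNT, -0.23 in shTIP60, -0.16 in shCDK8 and -0.28 in HIF1A-/-, and in hypoxic HIF1A-/- against shNT by -0.12. The calls of all genes in shNT went from 3208 higher and 3103 lower to 2116 higher and 4604 lower. With it, the hypoxia calls of ANXA2 (0.24, adjusted p = 0.198, edgeR), ANXA4 (0.25, 0.139) and ANXA5 (0.22, 0.307) in shTIP60 and of ANXA2 in HIF1A-/- (0.36, 0.0573) were lost. In shTIP60, ANXA1 (-0.65, 0.0353), ANXA3 (-0.65, 0.011) and ANXA7 (-0.51, 0.0017) were gained, so that its 3 higher and 1 lower annexins became 0 higher and 4 lower. ANXA3 in shNT (-0.55, 0.0256), ANXA7 in shCDK8 (-0.40, 0.0145) and ANXA4 in hypoxic HIF1A-/- against shNT (-0.34, 0.0485) were also called lower. The count of annexins called in shTIP60 against shNT in hypoxia went from 2 to 1. ANXA6 in hypoxia went from 0.06 to -0.14 in shNT.

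Testing against 1.5-fold left 1 annexin in each of the 4 hypoxia comparisons, 1 in hypoxic shTIP60 and 1 in hypoxic shCDK8 against shNT, 2 in hypoxic HIF1A-/- against shNT, and 0 in the response difference of HIF1A-/-. In normoxic shTIP60 against shNT, the count of 1 became 2 without the filter, 2 with a mean of at least 5 CPM, 2 with DESeq2 and 3 with only the groups compared. A mean of at least 5 CPM left 1 in hypoxic shTIP60 against shNT. The response difference of shCDK8 gained 1 (ANXA10) without the filter, and hypoxia in shTIP60 gave 8 with only the groups compared. That setting lost ANXA3 with hypoxia in shCDK8 (-0.53, adjusted p = 0.0815, edgeR), ANXA2 in normoxic HIF1A-/- against shNT (-0.51, 0.0936) and the response difference of ANXA7 in HIF1A-/- (0.68, 0.0721). Counts of all genes also moved: in the response differences of shTIP60 and shCDK8 edgeR called 5 and 6 genes and DESeq2 64 and 225. With hypoxia in shTIP60, calls of all genes went from 6083 to 9119 with only the groups compared. Against 1.5-fold, all genes called with hypoxia were 1962 in shNT, 1726 in shTIP60, 589 in shCDK8 and 1895 in HIF1A-/-.

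Leaving out a library gave 3 to 4 annexins for hypoxia in shNT, 2 to 2 in shTIP60, 1 to 3 in shCDK8 and 3 to 4 in HIF1A-/-. Against shNT in normoxia it gave 1 to 1, 2 to 3 and 2 to 2 for shTIP60, shCDK8 and HIF1A-/-, and in hypoxia 1 to 2, 2 to 3 and 3 to 4. The response differences gave 0 to 0, 0 to 0 and 2 to 3. A group left with 1 library was assumed to vary like the others.

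The replicate numbers of the labels could not be tied to columns, so the planned pairing by them was not run. A block for the 2 runs of library numbers, chosen after seeing the data, gave 7 annexins for hypoxia in shNT, 7 in shTIP60 and 5 in shCDK8, 3 in normoxic shTIP60 and 4 in normoxic shCDK8 against shNT, and 1 in the response difference of shCDK8. Deviations of libraries A from their group means correlated between groups at 0.031 to 0.336 (median 0.119, 18 of 28 pairs above 0.1). All were positive, so libraries of the same series of numbers deviated in part together, though weakly in some pairs of groups. Whether a series was a batch is not given in the sources used here. The main fit had no block, which left this shared part in its error.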
